A study of Mus musculus with 6 samples.

Results

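The genes described here are 36 lysosomal genes, chosen by name from the 23337 genes of a deposited expression table and read in all 6 of its libraries. By role they are 12 proteases, 10 glycosidases, 5 sulfatases, 5 genes of lipid handling, 3 membrane proteins and 1 transcription factor. All 36 were found in the table. RNA came from endothelial cells of mouse spleen (strain C57BL/6), sorted after collagenase digestion as positive for CD31, an endothelial surface protein, and negative for CD45, a leukocyte protein. Wild-type mice gave 3 libraries (WT 1, WT 3 and WT 4) and Stab1-/- mice, in which the gene for stabilin-1 (Clever-1) is knocked out, gave 3 (KO 2, KO 3 and KO 4), and no treatment, age or time is given in the labels. No label ties a library to an animal of its own, and p-values therefore measure only how these libraries spread, which may be technical.

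Lysosomes are acidic organelles in which proteases, glycosidases, sulfatases and lipases break down what a cell takes in or discards. Most of these hydrolases carry a mannose 6-phosphate tag that sorts them from the Golgi, and the membrane around them is lined with glycosylated LAMP proteins. Endothelial cells of spleen and liver sinusoids clear macromolecules from blood through scavenger receptors, stabilin-1 among them, which deliver their cargo to lysosomes. Stabilin-1 is also known to shuttle between the Golgi and endosomes. TFEB, one of the 36, is a transcription factor that drives many lysosomal genes through E-box sites near their starts.

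Levels are given in RPKM, reads scaled by gene length and library depth so that genes and libraries can be set side by side. The scaling leaves trends with GC content and length, so the order of genes by level is approximate. Values of a gene are given in the order WT 1, WT 3, WT 4 and then KO 2, KO 3, KO 4. The libraries held 38454112 to 49361265 reads assigned to genes, and every member except Ctss, Ctsk, Ctsc and Galns had at least 484 reads in each library. Stab1 itself (gene ID 192187, chromosome 14, 31139017 to 31168651, GRCm38) stood at 21.6, 43.6 and 31.4 RPKM in the wild-type libraries and 2.32, 2.62 and 2.49 in the knockout ones (log2 fold change -3.40, adjusted p = 7.15e-05 in limma), so the labels and the targeted gene go together. Of 12 endothelial markers 11 were high enough to test (Pecam1 273 to 359.8 RPKM, Egfl7 838 to 1053), 8 of them with a positive and 3 with a negative fold change. Clec4g, of the same list, was called lower (1650.0 ± 132 RPKM in wild-type libraries and 698 ± 104 in knockout ones, adjusted p = 0.00106 in limma), and the list summed to 3752 to 4564 RPKM in wild type and 3391 to 3579 in knockout. This sum includes Clec4g, a large part of it in wild type, so it does not describe the other endothelial markers. No B or plasma cell, T or NK cell, or neutrophil or mast cell marker was high enough to test. Testing took at least 1 RPKM in 3 libraries, and Jchain, Mzb1 and Trac were not in the table. Some libraries still held neutrophil markers. Mpo stood at 9.52 RPKM and Elane at 4.86 in WT 3, and S100a8 at 5.32 in KO 3 and 3.87 in KO 4. WT 1 stood apart in stromal markers: reticular cell and fibroblast markers summed to 286 RPKM there against 68.7 to 115 in the other libraries (Dcn 96.2 against 3.68 to 33.1), smooth muscle and pericyte markers to 538 against 277 to 396, and mesothelial markers to 12.6 against 1.05 to 6.56. Without WT 1, 0 of the 36 members were called, as with it. Over all genes 168 were called without it and 214 with it, so a member count that stays at 0 does not show that WT 1 had no part. The estimates of Lgmn, Ctsh and Ctss without WT 1 are given below.

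Promoter sequences were read as well, which the choice of members by name did not use. The E-box sites searched for are known from lysosomal genes, however, so an excess among the members is no independent result. RefSeq promoters (GRCm38.p6, 250 bases before to 50 after a gene's start) matched 31 of the 36 members, and Ctsb, Ctsh, Npc1, Asah1 and Galns had no entry. The letters CACGTG, the core E-box, stood in a window of 13 of these 31 members (41.9%) and of 2187 of 27025 genes (8.09%). The longer GTCACGTG, searched on both strands so that it also reads CACGTGAC, stood in 10 of 31 (32.3%) and in 689 of 27025 genes (2.55%). The 8-letter palindrome TCACGTGA was in 4 (Ctsa, Ctsd, Gla and Mcoln1; 12.9%, against 1.12% of all genes), and it overlaps the longer site in each of them. A 10-letter palindrome that holds the longer site on both strands, GTCACGTG followed by AC, was searched for as well. It stood in 0 of the 31 members and in 100 of 27025 genes (0.37%). It is so rare among all genes that its absence from 31 members says little. A match is a description of these letters, and no binding was measured here. In the lines below, 1 site of each of the 10 members is shown 5′ to 3′ in the direction of the gene. The 8 matching bases are in capitals. These sites hold the core E-box but not the full 10-letter palindrome. Whether TFEB acts through them was not tested.
Ctsa, chr2:164833745-164833772, plus strand: acaatgagcaaactGTCACGTGatgcag
Ctsd, chr7:142387904-142387939, minus strand: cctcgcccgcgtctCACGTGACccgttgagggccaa
Lgmn, chr12:102439122-102439157, minus strand: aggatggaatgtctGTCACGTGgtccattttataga
Glb1, chr9:114401014-114401049, plus strand: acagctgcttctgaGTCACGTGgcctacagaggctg
Naglu, chr11:101070005-101070040, plus strand: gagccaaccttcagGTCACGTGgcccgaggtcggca
Gla, chrX:134601180-134601215, minus strand: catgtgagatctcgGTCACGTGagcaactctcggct
Sgsh, chr11:119355518-119355553, minus strand: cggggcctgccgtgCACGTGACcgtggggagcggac
Arsa, chr15:89477425-89477456, minus strand: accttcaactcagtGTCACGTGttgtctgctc
Lamp1, chr8:13159119-13159154, plus strand: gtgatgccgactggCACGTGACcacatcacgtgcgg
Mcoln1, chr8:3500460-3500495, plus strand: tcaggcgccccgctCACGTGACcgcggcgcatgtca

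These sites start 14 (Ctsa) to 196 (Gla) bases before an annotated start, and Ctsd and Mcoln1 each held another one. Ctsa and Lgmn each have 2 annotated starts, and their sites precede only the inner one, within the span of the gene. The 10 members with the site had a median level of 84.2 RPKM and ranged from 3.62 to 699.3, and the 21 without it had a median of 40.4 and ranged from 2.95 to 426, so the ranges overlap almost throughout. The median log2 fold change (knockout minus wild type) was 0.07 in the former and 0.05 in the latter.

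Most of the 36 lysosomal genes stood above the median level of the genes tested, but not all. The median member stood at 50.7 RPKM, averaged over all libraries, against 11.98 for the 11035 genes that were tested. It lay at the 82.5th percentile of them. The median sulfatase lay at the 24.6th percentile, and the lowest member, Npc1, at the 17.5th. Together the 36 took 0.842% to 0.917% of all RPKM in a library (0.894% ± 0.035 in wild type and 0.879% ± 0.034 in knockout, SD, n = 3). The groups overlapped in this share. Proteases made up 48.6% to 53.3% of the members' summed RPKM, membrane proteins 17.2% to 19.3%, lipid handling 15.6% to 18.0%, glycosidases 10.4% to 12.15%, and sulfatases 2.11% to 3.16%. Ctsd, Ctsb, Lamp1 and Psap alone held 48.7% to 55.01%.

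**Figure D1:**
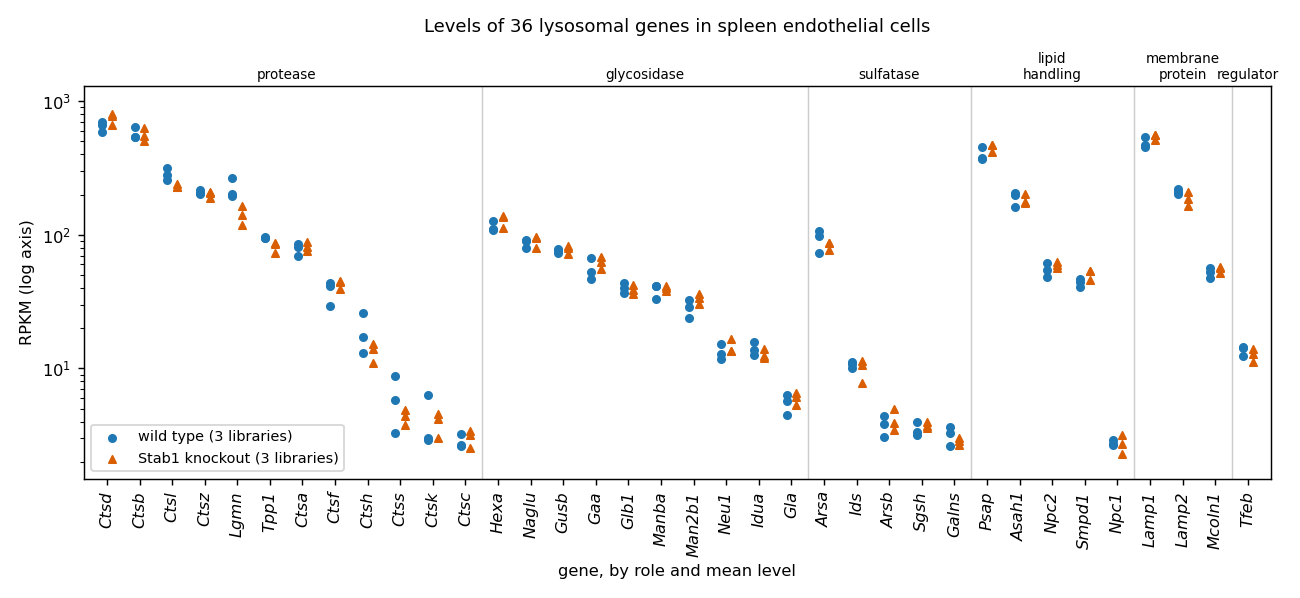
RPKM (log axis) of the 36 genes in each library, ordered by role and by mean level; circles are the 3 wild-type and triangles the 3 knockout libraries. Levels ran from 2.74 (Npc1) to 699.3 (Ctsd), and the wild-type and knockout points of a gene lie close together on this scale.

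Among proteases, the endopeptidases of broad use led. Ctsd, the aspartic protease cathepsin D, stood at 665, 693 and 589.8 RPKM in the wild-type libraries and 782, 801 and 666 in the knockout ones. Ctsb, the cysteine protease cathepsin B, stood at 638, 542 and 540.5 RPKM in the wild-type libraries and 631, 551 and 506 in the knockout ones. Their ranges over all libraries overlapped, but within every library Ctsd was above Ctsb. Overlap between genes, here and below, compares such ranges and does not mean that their order changes within a library. Ctsl (cathepsin L) followed at 258 RPKM averaged over libraries, and Ctsz, the carboxypeptidase cathepsin Z, at 205, with no overlap between the pair. Lgmn, which encodes legumain, an endopeptidase that cuts after asparagine and matures other cathepsins, averaged 181, and overlapped Ctsz. Tpp1 (tripeptidyl peptidase) and Ctsa, a carboxypeptidase that also protects the neuraminidase and galactosidase of lysosomes, averaged 88.5 and 80.3, and overlapped each other. Ctsf averaged 40.4.

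At the other end were cathepsins best known from leukocytes and osteoclasts. Ctsh averaged 16.1 RPKM. Ctss, the cathepsin that trims the invariant chain in antigen-presenting cells, averaged 5.15, Ctsk, the collagenase of osteoclasts, 4.02, and Ctsc, which activates granule proteases, 2.94. Ctss and Ctsk overlapped, as did Ctsk and Ctsc. Of all members Ctss, Ctsk and Ctsh varied most between libraries of a group, with an SD of log2 values of 0.47, 0.45 and 0.38, against 0.17 for Ctsc, a median of 0.14 over the members and 0.18 over all tested genes. WT 1 held the highest value of these 3: 8.78 for Ctss, 6.38 for Ctsk and 25.9 for Ctsh. WT 1 is also the library with the highest fibroblast markers, and their part in these values was not tested. Ctsk and Ctss lie 17.4 kb apart on chromosome 3.

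Glycosidases spanned a narrower range, from 5.75 to 122 RPKM. Hexa, the alpha subunit of beta-hexosaminidase, stood at 111, 128 and 108 RPKM in the wild-type libraries and 138, 137 and 112 in the knockout ones. Naglu, which removes N-acetylglucosamine from heparan sulfate, stood at 92.3, 89.6 and 79.6 RPKM in the wild-type libraries and 96.6, 94.6 and 79.8 in the knockout ones. Gusb, the beta-glucuronidase, stood at 72.9, 77.8 and 76.2 RPKM in the wild-type libraries and 82.00, 79.2 and 71.6 in the knockout ones. Hexa did not overlap Naglu, and Naglu and Gusb overlapped. Gaa, which degrades glycogen, averaged 58.9, the beta-galactosidase gene Glb1 39.6, and the mannosidase genes Manba and Man2b1 39.3 and 30.9. The sialidase gene Neu1 (13.9) and the iduronidase gene Idua (13.4) overlapped, and Gla, the alpha-galactosidase, was lowest.

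Sulfatases were dominated by Arsa, which acts on sulfatides. Arsa stood at 73.1, 98.8 and 106 RPKM in the wild-type libraries and 86.2, 86.98 and 76.7 in the knockout ones, and its mean was 8.57 times that of Ids, the iduronate sulfatase. Ids stood at 10.1, 11.1 and 10.7 RPKM in the wild-type libraries and 10.6, 7.75 and 11.3 in the knockout ones. Arsb stood at 4.38, 3.85 and 3.06 RPKM in the wild-type libraries and 4.95, 3.44 and 3.94 in the knockout ones. Arsb, which acts on dermatan sulfate, overlapped Sgsh, the heparan sulfamidase (3.62 on average), and Sgsh overlapped Galns, which acts on keratan sulfate (3.02). Gaa and Sgsh, a close pair among the members, lie 58.0 kb apart on chromosome 11, and the level of Gaa was 16.3 times that of Sgsh.

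Among genes of lipid handling, Psap, the precursor of the saposins that help hydrolases reach sphingolipids, stood at 376, 455 and 372 RPKM in the wild-type libraries and 466, 468 and 415 in the knockout ones. Asah1, the acid ceramidase, stood at 205, 162 and 197 RPKM in the wild-type libraries and 172, 176 and 203 in the knockout ones. Npc2, the soluble cholesterol carrier, stood at 61.1, 54.4 and 48.6 RPKM in the wild-type libraries and 59.05, 62.5 and 56.8 in the knockout ones. These 3 genes did not overlap in level, whereas Npc2 overlapped Smpd1, the acid sphingomyelinase, at 47.6 RPKM on average. Npc1, the membrane partner to which Npc2 hands cholesterol, was the lowest member of all at 2.74, so the soluble carrier and its membrane partner differed widely in transcript level.

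The membrane proteins kept apart in level. Lamp1 stood at 544, 474 and 457 RPKM in the wild-type libraries and 556, 562 and 514 in the knockout ones. Lamp2 stood at 208, 202 and 219 RPKM in the wild-type libraries and 186, 166 and 209 in the knockout ones. Mcoln1, the calcium channel mucolipin, stood at 56.3, 52.9 and 47.6 RPKM in the wild-type libraries and 56.1, 57.2 and 52.2 in the knockout ones. No library's value of 1 of these genes reached that of the next. Tfeb stood at 14.4, 14.2 and 12.4 RPKM in the wild-type libraries and 12.8, 14.1 and 11.2 in the knockout ones. Of its relatives in the same factor family, Tfe3 was at 21.1 ± 3.11 RPKM in wild-type libraries and 26.4 ± 3.45 in knockout ones (SD, n = 3), while Mitf did not exceed 0.241 RPKM and Tfec 0.3 in any library.

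Knockout cells were then compared with wild-type cells. No lysosomal gene of the 36 passed the test, and the lowest p belonged to proteases, Lgmn above all. The fit was made with limma on log2(RPKM + 0.5), a scale that understates the change of low genes, and p-values were adjusted by Benjamini-Hochberg over all genes. At an adjusted p of 0.05, 0 of 36 members were called, where 1.94% of the 11035 genes tested were (0.671% higher and 1.27% lower in knockout). By the unadjusted p under 0.05, 2 members (5.56%), Lgmn and Ctsl, stood out, against 15.7% of all genes tested. The genotypes were fully separated in 3 members (8.33%; Lgmn, Ctsl and Tpp1, all lower in knockout), against 20.3% of genes in either direction and 9.57% in that direction. Log2 fold changes (knockout minus wild type) were positive in 20 members and negative in 16. Their median was 0.04, and that of all tested genes 0.03. With library quality weights, which called 3653 of the 11035 genes, 17 of the 36 members were called, 12 higher and 5 lower. With quantile normalization 1 was, Lgmn, as it was once GC and length trends had been taken out.

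The intervals limit the size of change these data allow. All 36 members had a 95% interval within a 2-fold change in either direction, which held for 90.1% of all tested genes, and 32 (88.9%) had one within 1.5-fold, against 59.6% of all tested genes. The exceptions to the latter were Lgmn, Ctsh, Ctss and Ctsk. The shares are not matched for level or spread, so they do not set the members apart from genes like them. The median member stood at 50.7 RPKM with a within-group SD of log2 values of 0.14. The medians over all tested genes were 11.98 RPKM and 0.18. These intervals are per gene and are not adjusted for the number of genes.

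**Figure D2:**
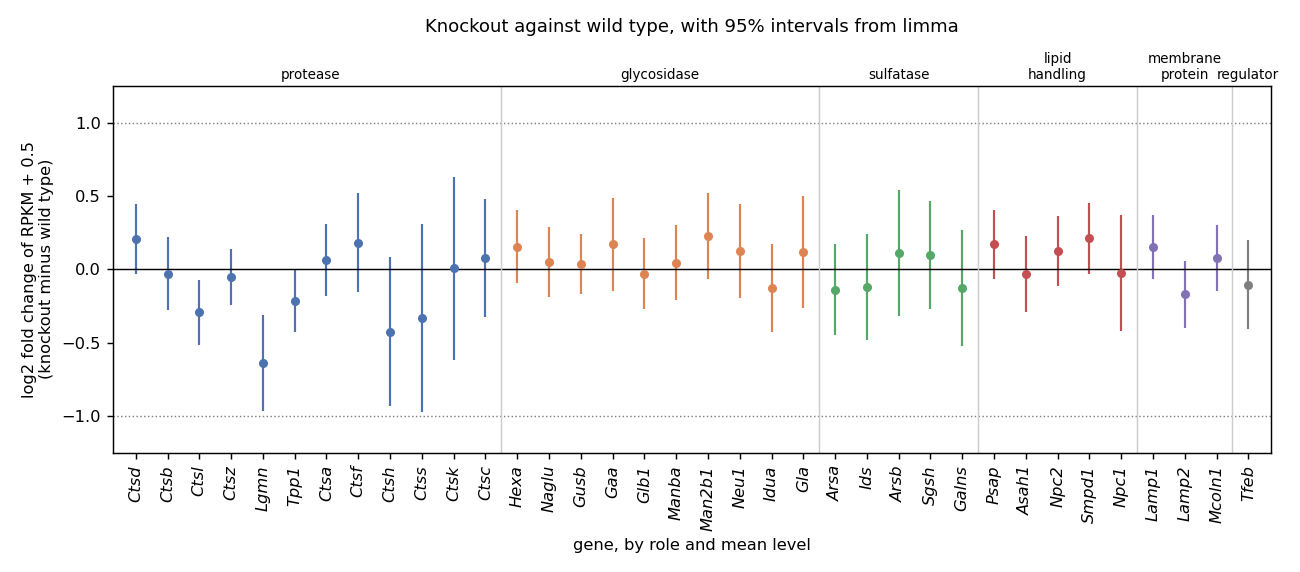
Log2 fold change of each member (knockout minus wild type, log2(RPKM + 0.5) scale), with its 95% interval from limma, by role. Intervals of Lgmn and Ctsl exclude 0, and all 36 lie between the dotted lines at a 2-fold change.

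Proteases held the members with the lowest p. Lgmn (chromosome 12, 102394082 to 102439728, GRCm38) stood at 264, 194 and 203 RPKM in the wild-type libraries and 119, 164 and 141 in the knockout ones. Every knockout library was below every wild-type library. The mean went from 220.5 ± 38.2 to 141 ± 22.1 (SD, n = 3; log2 fold change -0.64 ± 0.15 SE, 95% interval -0.96 to -0.31, adjusted p = 0.0631), so Lgmn did not pass in limma. Its adjusted p was 0.0322 with quantile normalization, 0.0399 on values corrected for GC content and length, and 0.00238 with quality weights, and it ranged up to 0.232 over the 18 alternatives, and without WT 1 the log2 fold change was -0.50 (adjusted p = 0.117). Relative to Ctsd in the same library, Lgmn had 39.8%, 28.03% and 34.4% of its level in the wild-type libraries, against 15.3%, 20.4% and 21.2% in the knockout ones, a ratio chosen after the values were seen.

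Ctsl (chromosome 13, 64361890 to 64370772) stood at 318, 256 and 280.0 RPKM in the wild-type libraries and 239, 229 and 226 in the knockout ones. The groups did not overlap, and the knockout libraries lay close together. The difference (log2 fold change -0.29 ± 0.10 SE, 95% interval -0.51 to -0.07, adjusted p = 0.2) did not pass in limma. Corrected for GC content and length, its log2 fold change was -0.15 (adjusted p = 0.585), and with quality weights -0.25 (adjusted p = 0.0126).

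**Figure D3:**
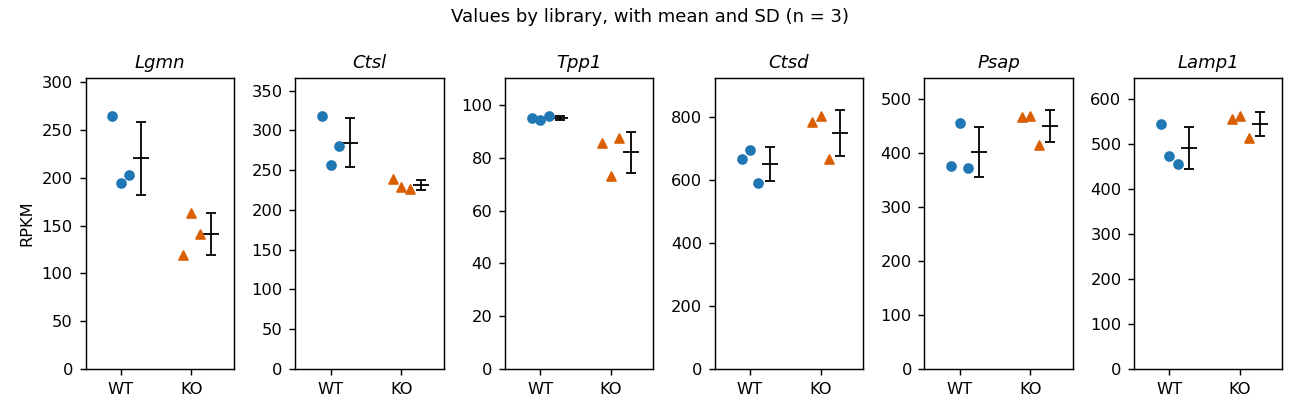
RPKM by library for Lgmn, Ctsl, Tpp1, Ctsd, Psap and Lamp1, with mean and SD (n = 3) beside the points and axes from 0. The knockout points lie below all wild-type points for Lgmn, Ctsl and Tpp1, and the groups overlap for the other 3 genes.

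Of the other proteases, Tpp1, chosen for description after its values were seen, stood at 94.96, 94.4 and 95.8 RPKM in the wild-type libraries and 85.5, 73.2 and 87.5 in the knockout ones. The wild-type libraries were nearly equal and all above knockout (log2 fold change -0.21, adjusted p = 0.32 in limma). Ctsd, whose values are given above, had a log2 fold change of 0.20 with overlapping groups (adjusted p = 0.386), and Ctsb one of -0.03 (adjusted p = 0.917). For Ctsb the 95% interval was -0.28 to 0.22. Among all 12 proteases 5 fold changes were positive and 7 negative, with a median of -0.04. Ctsh and Ctss had estimates of -0.42 and -0.33 with wide intervals, -0.93 to 0.08 and -0.97 to 0.31. Without WT 1, which held the highest values, they were -0.17 and -0.02.

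Estimates in the other roles lay between -0.17 and 0.23. Of 10 glycosidases 8 were positive and 2 negative (median 0.08, from -0.13 for Idua to 0.23 for Man2b1), and the lowest adjusted p was 0.423, for Man2b1, which stood at 24.1, 32.7 and 28.7 RPKM in the wild-type libraries and 35.96, 33.4 and 30.5 in the knockout ones. Its groups overlapped. Of 5 sulfatases 2 were positive (median -0.12, lowest adjusted p = 0.64, for Arsa). The 2 lowest Arsa values fell in different groups, 73.1 RPKM in WT 1 and 76.7 in KO 4.

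Of 5 genes of lipid handling 3 were positive (median 0.12). Smpd1 stood at 44.6, 46.8 and 40.8 RPKM in the wild-type libraries and 53.9, 53.9 and 45.7 in the knockout ones. It had the lowest adjusted p of this role in limma, 0.374, with a log2 fold change of 0.21. Psap was at 0.17, Npc2 at 0.12, Asah1 at -0.03 and Npc1 at -0.03. Summed over the role, RPKM were 662 to 720.3 in wild type and 723 to 763 in knockout. The ranges do not overlap, but the gap between them is small beside the spread within a group, and Psap alone carries most of the sum. Among the roles only this sum separated. Those of proteases, glycosidases, sulfatases and membrane proteins overlapped between genotypes, as did Tfeb.

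The LAMP genes had estimates of opposite sign. Lamp1 was at 0.15 (adjusted p = 0.475) and Lamp2 at -0.17 (adjusted p = 0.436), neither passing in limma, and Lamp2 corrected for GC content and length was at 0.22. Mcoln1 was at 0.08 and Tfeb at -0.10 (95% interval -0.41 to 0.20).

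Other genes of the pathway were read from 7 lists: further hydrolases and activators, further membrane proteins, proton pump subunits, sorting receptors, cystatins, lysosomal sensing and transcription, and autophagy. Of 121 genes listed 118 were in the table and 104 were tested, and 0 were called in limma (9 at an unadjusted p under 0.05, 7 higher and 2 lower, or 8.65%, against 15.7% of all genes tested). The fold changes of 74 were positive and the median was 0.07. By list, positive values were 21 of 28 hydrolases and activators (median 0.05), 11 of 19 membrane proteins (0.03), 11 of 16 pump subunits (0.08), 4 of 6 sorting receptors (0.07), 1 of 2 cystatins (-0.04), 8 of 13 sensing genes (0.05) and 18 of 20 autophagy genes (0.14). All tested genes had 54.3% positive.

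**Figure D4:**
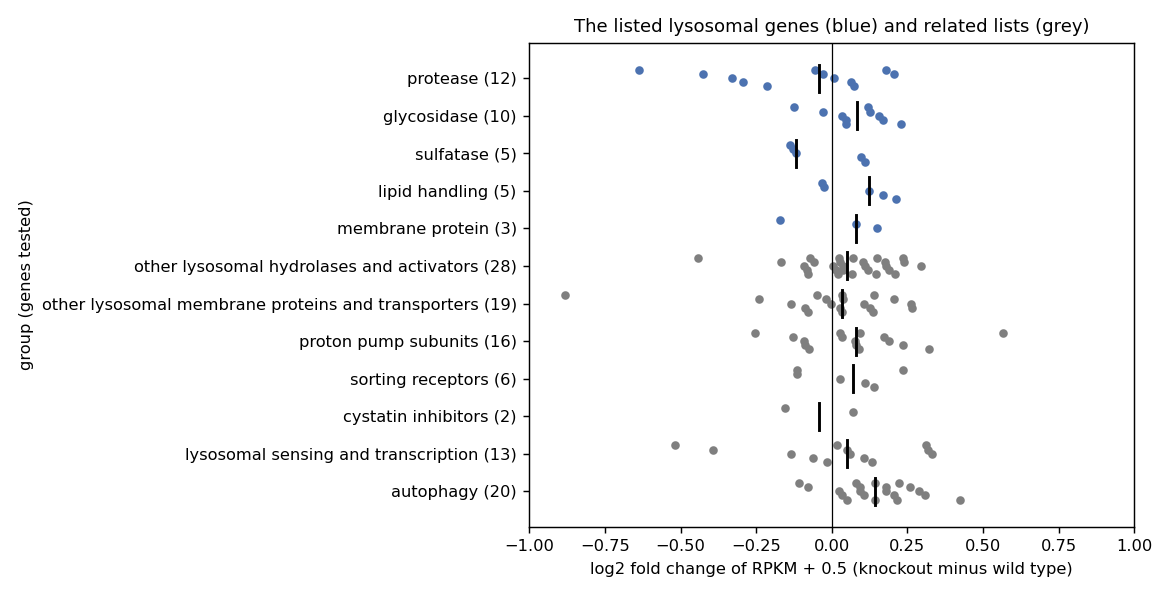
Log2 fold change (knockout minus wild type) of each tested gene in 5 roles of the members (blue) and in 7 related lists (grey); the vertical bar is the median of the group and the number in brackets the genes tested. Medians lie between -0.12 (sulfatase) and 0.14 (autophagy).

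The genes named next were chosen after their values were seen. Ctso, another cysteine cathepsin, stood at 61.8, 57.1 and 53.9 RPKM in the wild-type libraries and 38.2, 39.5 and 49.7 in the knockout ones. Its groups did not overlap (log2 fold change -0.44, adjusted p = 0.117 in limma), in the same direction as Lgmn and Ctsl. Atp6v0a2, a membrane subunit of the proton pump that acidifies Golgi and endosomes, stood at 18.6, 36.6 and 29.8 RPKM in the wild-type libraries and 40.5, 40.9 and 40.6 in the knockout ones. All knockout libraries were higher (0.57, adjusted p = 0.225), and WT 1 was the lowest. Atg7, which encodes an enzyme of autophagosome formation, stood at 10.3, 12.2 and 10.4 RPKM in the wild-type libraries and 15.6, 14.8 and 14.2 in the knockout ones. It too did not overlap and did not pass (0.42, adjusted p = 0.151). Laptm5, a lysosomal membrane protein mainly of blood cells, was at 3.05 ± 1.38 RPKM in wild-type libraries and 1.35 ± 0.222 in knockout ones (-0.88, adjusted p = 0.155).

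Of the cystatins, natural inhibitors of cysteine cathepsins, 2 were high enough to test. Cst3, which encodes the secreted cystatin C, was at 636 ± 88.05 RPKM in wild-type libraries and 664 ± 40.8 in knockout ones (SD, n = 3), and Cstb, the intracellular cystatin B, at 409.9 ± 50.4 RPKM in wild-type libraries and 366 ± 10.8 in knockout ones. Neither passed in limma (adjusted p = 0.785 and 0.495). Of the sorting receptors for mannose 6-phosphate, M6pr averaged 91.2 RPKM and Igf2r 1.09. Laptm4a and Cd63, of the lysosomal membrane, averaged 783 and 348, above the level of Lamp2, whereas Cd68, a LAMP-family protein of macrophages, averaged 0.737.

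Macrophages are rich in lysosomal transcripts, so their markers were read beside these results. Of 16 macrophage and monocyte markers 15 were in the table and 6 were tested. Their summed RPKM was 249 to 284 in wild type and 95.2 to 162 in knockout, most of it Fcer1g, which was called lower (224 ± 8.32 RPKM in wild-type libraries and 78.9 ± 31.5 in knockout ones, adjusted p = 0.00773 in limma). Of the 6 tested, 5 had a negative fold change (median -0.40) and 4 an unadjusted p under 0.05, 3 lower and 1 higher. Beside Fcer1g these were Lyz2, at 14.7, 18.8 and 7.25 RPKM in the wild-type libraries and 5.75, 7.37 and 8.50 in the knockout ones, Tyrobp, at 4.28, 3.21 and 3.29 RPKM in the wild-type libraries and 1.67, 2.88 and 2.68 in the knockout ones, and Cd14, at 10.5, 8.39 and 6.16 RPKM in the wild-type libraries and 13.2, 15.5 and 10.7 in the knockout ones. Their log2 fold changes were -0.79, -0.51 and 0.64, and none of these 3 passed after adjustment. The last of the 6, Spic and Mrc1, were at -0.30 and -0.02, with means over libraries of 1.84 and 16.4 RPKM. The sum without Fcer1g, which adds values of opposite direction, overlapped, at 48.3, 57.5 and 33.4 RPKM in the wild-type libraries and 39.7, 42.9 and 47.03 in the knockout ones. The other 9 stayed under 1 RPKM in every library: Vsig4, listed at 0 throughout, and Csf1r, Marco, Cd163, Mpeg1, C1qa, C1qb, C1qc and Aif1. The part of these markers in the Lgmn values was not tested. In bulk RNA, fewer cells of a type and less RNA per cell cannot be told apart. The 9 megakaryocyte and platelet markers, 1 of them called lower, summed to 88.9 to 254 RPKM in wild type (254 in WT 3) and 58.6 to 75.4 in knockout. All 9 fold changes were negative (median -0.84), and 3 had an unadjusted p under 0.05 in limma. The 12 dissociation response genes, none of them called, summed to 5837 to 6390.0 and 6217 to 7382 RPKM. Of their fold changes 10 were positive and 2 negative, and 4 had an unadjusted p under 0.05 in limma, all higher. Of 8 reticular cell and fibroblast markers and 7 smooth muscle and pericyte markers tested, 1 of each was called lower. Erythroid markers, 2 of them tested and none called, summed to 48.7, 43.7 and 8.02 RPKM in the wild-type libraries and 16.96, 2.69 and 1.47 in the knockout ones. The part of these lists in the results was not tested either.

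In the authors' deposited table of the same comparison, 0 of 36 members had an adjusted p under 0.05, against 1.57% of its 13742 genes. The lowest in the authors' deposited table was 0.0877, for Lgmn, with a log2 fold change of -0.638, and the next was 0.228, for Ctsl. By position the members were spread over 16 chromosomes. Only Ctsb lies on chromosome 14 with Stab1, 31.95 Mb away. Its annotated end overlaps Fdft1 by 774 bases, and because strand is not marked by the kit, reads from those bases could belong to either gene. The spans of 9 other members, Hexa, Glb1, Idua, Asah1, Npc1, Ctsz, Ctsa, Sgsh and Galns, overlap a protein-coding gene as well.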

How the data were processed

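Per the labels' protocols, RNA of sorted spleen endothelial cells was amplified with SMART-Seq v4, meant for very small inputs, and tagmented with Nextera XT, an unstranded method. Tools named in the submitters' processing notes are STAR 2.5.2b, Subread, edgeR and limma with the mm10 build, without roles or order. The authors deposited RPKM for 23337 genes. The authors also deposited a table with log2 fold changes and p-values, raw and adjusted, per the file headers. Column numbers do not match the labels' replicate numbers, so columns were assigned to a genotype only and keep their own number.

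Depth was recovered from the RPKM: for 99.98% of the 16582 genes above 0 in at least 2 libraries, all values were whole reads within 0.001. Members rest on 198 or more reads in each library. The fit kept the 11035 genes that reached 1 RPKM in 3 or more of the 6 libraries, all members among them. The limma package (3.58.1, R 4.3.3) then fitted genotype to log2(RPKM + 0.5) (variances moderated with an intensity trend), with Benjamini-Hochberg adjustment over all tested genes and a threshold of 0.05. Lists are described by counts and medians, and genes were matched by symbol. Members and lists were chosen with earlier results of these data known. The rule for values in every library took called members, members that did not overlap with an unadjusted p under 0.05, and the 3 highest of each role; other names are said to be chosen after their values were seen, or are given by their level, range or estimate within their role or list. A planned permutation test of the members' summed share was left out, because the members were chosen with results known. Positions are those of RefSeq on GRCm38.p6, and GC content and length those of the longest GENCODE M21 transcript (91% of tested genes). The fit was first tested on simulated data. Figures used matplotlib 3.10.9.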

Additional observations from a re-analysis of the deposited data

How the results depend on the processing

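Counts of members called were 0 in 15 of 18 alternatives, among them the 6 that leave out 1 library each (0 to 0), and were 1 with quantile normalization, 1 after removal of GC and length trends (both times Lgmn) and 17 with library quality weights. Over all genes the count of 214 became 77 with no filter on low values and 3653 with quality weights, and it ranged from 56 (without KO 3) to 418 (without KO 4), with 93 without WT 4 and 83 without KO 2. Fitted with voom on recovered reads it was 256. Other lysosomal genes called were 28 of 104 with quality weights, a setting that called 3653 of 11035 genes. When 1 library was left out, 0 to 1 of them were called, the 1 arising without KO 4. Quality weights moved the median log2 fold change of all members to 0.13, of proteases to 0.11, of lipid handling to 0.25 and of membrane proteins to 0.20; when 1 library was left out, medians ranged from -0.005 to 0.062 for all members (below 0 without WT 4 or KO 2), -0.119 to 0.014 for proteases (above 0 without WT 1), 0.040 to 0.155 for glycosidases, 0.043 to 0.156 for lipid handling, 0.014 to 0.134 for membrane proteins and -0.164 to 0.040 for sulfatases (above 0 without KO 3). The cause was not tested.

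Of 641 member estimates under alternatives, 575 kept their sign and their side of the threshold, 19 passed it in the same direction and 47 changed sign, all of them uncalled. With quantile normalization the sign changed for Ctsa (-0.001), Gusb (-0.024), Manba (-0.007), Naglu (-0.006) and Npc1 (0.079), and in voom on recovered reads for Ctsk (-0.007). Removal of GC and length trends changed it for Asah1 (0.128), Ctsa (-0.042), Gusb (-0.019), Ids (0.148), Lamp2 (0.219), Naglu (-0.041), Npc1 (0.044) and Sgsh (-0.046), and quality weights for Ctsb (0.13), Ctss (0.091), Glb1 (0.128), Idua (0.041), Manba (-0.025) and Tfeb (0.018). Leaving out 1 library gave ranges across 0 for Arsb (-0.017 to 0.216), Asah1 (-0.137 to 0.035), Ctsa (-0.026 to 0.126), Ctsb (-0.115 to 0.05), Ctsk (-0.169 to 0.334), Gla (-0.007 to 0.214), Glb1 (-0.093 to 0.03), Gusb (-0.006 to 0.091), Ids (-0.221 to 0.04), Manba (-0.061 to 0.102), Naglu (-0.015 to 0.135) and Npc1 (-0.119 to 0.078). The column numbers do not match the labels' replicate numbers, but 3 and 4 occur in both genotypes, and a replicate block by column number was added after seeing the data. It rests on 2 pairs and leaves 1 residual degree of freedom. Deviations from the group means correlated by 0.193 in each same-numbered pair and by -0.162 to 0.0943 in the others, a hint from the data and not from the design. With the block 355 genes and 0 members were called, Lgmn was at -0.384 (adjusted p = 0.125), and the sign changed for Gusb (-0.032), Manba (-0.083), Gla (-0.018), Asah1 (0.08) and Ctss (0.067). With 3 libraries a group, the intervals of low and variable members (Ctss, Ctsk) reach beyond a 1.5-fold change.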
